A study of Mus musculus with 14 samples.

Results

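Confluent 3T3-L1 preadipocytes, mouse fibroblasts in culture that can be made into fat cells with hormones, were profiled on expression arrays as they began to differentiate, and the step between 12 h and 24 h after the start is described here. It was chosen as 4 of the 14 arrays: the 2 arrays at 24 h against the 2 at 12 h, with 1 array per virus at each hour. At 24 h the groups were cells transduced with a SETD5 retrovirus and cells transduced with a control empty retrovirus, and the same pair of lines was measured at 12 h. All 4 had received the same cocktail of insulin, dexamethasone (a glucocorticoid) and isobutylmethylxanthine (an inhibitor of phosphodiesterases, which raises cAMP), which the study left on until 48 h. The SETD5 construct carried a V5 tag and was driven by a viral promoter that the study calls weak. SETD5 is a SET domain protein linked to histone modification. Each hour therefore has 1 line per virus and no replicate of either, and no source says whether hours came from separate cultures, so that p-values measure the spread of the virus difference between hours, which may be technical. Intensities are linear, and the authors had set each array's trimmed mean to 100. Of 18193 genes with a probe set, 8682 were tested, each through 1 probe set, and 7254 of them reached an intensity of 50 on all 4 arrays.

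Preadipocytes that have stopped dividing at confluence re-enter the cell cycle when the cocktail is added, a phase called clonal expansion, and later leave the cycle again to become fat cells. In a cell that leaves rest, genes of growth and ribosome assembly come first, E2F factors then switch on genes of DNA replication, and genes of mitosis follow, many of them through a promoter element called the cell cycle homology region (CHR). Mitosis ends when the anaphase-promoting complex (APC/C), a ubiquitin ligase, marks cyclins and securin for destruction. Of the regulators of fat cell formation, C/EBPβ and C/EBPδ act early, and PPARγ and C/EBPα act late.

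The 4 arrays were alike in quality. The 3′ to 5′ signal ratio of actin was 1.80 (SETD5) and 1.89 (empty) at 24 h, against 1.67 (SETD5) and 1.96 (empty) at 12 h, and that of Gapdh lay between 0.845 and 0.899. Markers fitted the labelled cells: 8 of 10 fibroblast markers on the array reached 50 on all 4 arrays, whereas 0 of 9 macrophage and leukocyte markers did (highest intensity 34.3), 0 of 6 endothelial markers (9.7) and 0 of 8 muscle, bone and cartilage markers (16.9). Of 27 fat cell markers, 18 stayed under 50 on all 4 arrays. The probe set of Setd5 with the highest mean gave 254 in SETD5 cells and 298 in empty cells at 24 h, against 239 in SETD5 cells and 249 in empty cells at 12 h, and over the 7 hours it averaged 302 in SETD5 cells and 309 in empty cells. No source used here places these probes within or outside the viral construct, so the values check nothing about it. Of the genes tested, 15 at 12 h and 32 at 24 h lay 2-fold or more apart between the viruses, against 620 at 192 h.

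Between 12 h and 24 h, 929 genes rose (10.7% of those tested) and 811 fell (9.34%), with limma and Benjamini-Hochberg adjustment over all 8682 genes. Every one of them had the same sign in both lines. The test favours this, since its spread is that of the difference between the lines. Of all 8682 genes, 3587 were higher and 3382 lower at 24 h in both lines. Among the calls, 214 of the rises and 97 of the falls reached 2-fold. More genes had moved in the first 12 h, when 1726 rose (19.9%) and 2422 fell (27.9%), and fewer moved in the next step, from 24 h to 36 h, with 599 rises (6.9%) and 670 falls (7.72%). Both lines moved by a like amount: 236 genes (SETD5) and 246 genes (empty) were 2-fold or more higher at 24 h, and 121 (SETD5) and 146 (empty) were 2-fold or more lower. The median change of all genes was 0.01 on the log2 scale. The counts depend on which arrays set the spread. With the 10 arrays up to 48 h, where the lines differ less from each other, 1539 genes rose and 1385 fell, and leaving out 1 of the 4 arrays at a time left 353 to 474 rises and 251 to 324 falls. Of 104 called genes chosen by rule to be named, 36 lost the call when at least 1 of the 4 arrays was left out, and none of these had changed by more than 1.62 on the log2 scale.

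**Figure D1:**
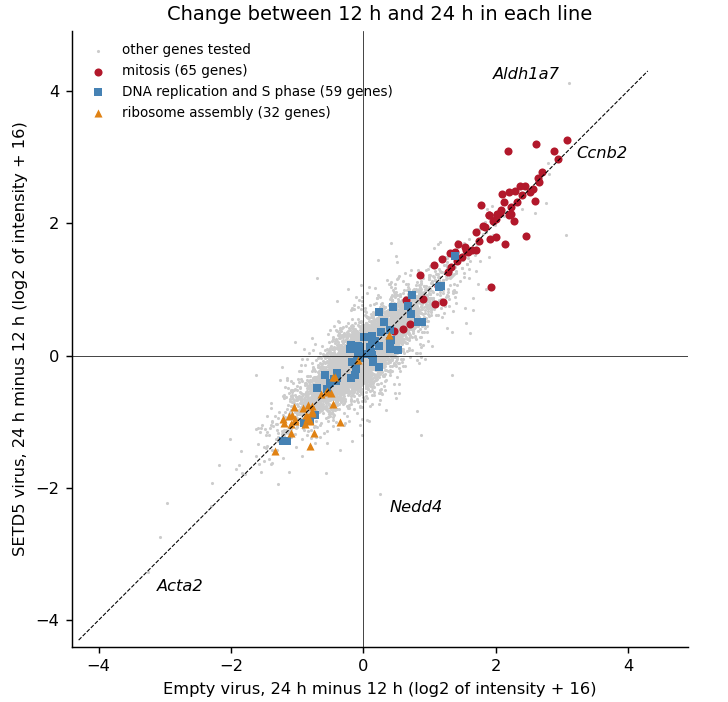
Change between 12 h and 24 h on the log2 scale of intensity + 16, with empty cells on the x axis and SETD5 cells on the y axis; each point is 1 of 8682 genes and the dashed line marks equal change. Genes of mitosis (circles) lie at the upper right, genes of ribosome assembly (triangles) at the lower left except 1 that lies just above 0 in both lines, and genes of DNA replication (squares) spread around 0; Nedd4 lies far off the line.

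No gene's change differed between the viruses at an adjusted p under 0.05 (limma): 82 genes had an unadjusted p under 0.05, and the lowest adjusted p was 0.210. That lowest value belonged to Nedd4, a ubiquitin ligase, with 502 in SETD5 cells and 3853 in empty cells at 24 h, against 2187 in SETD5 cells and 3217 in empty cells at 12 h; it was chosen after its values were seen. Only the SETD5 array at 24 h was low, since Nedd4 gave 2538 and 3735 at 0 h and 2420.1 and 4180.4 at 36 h, SETD5 cells first. The change was -2.09 in SETD5 cells and 0.26 in empty cells on the log2 scale, a difference of -2.35 ± 0.27. In all, 30 genes were 2-fold or more apart in their change.

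Each gene was placed by its direction before and after 12 h. Genes called in both steps with the same sign go on rising (72 genes, 0.829%) or falling (66 genes, 0.76%). Those called with opposite signs turn back, down after a first rise (485 genes, 5.59%) or up after a first fall (585 genes, 6.74%). Genes called after 12 h only, with a first step under 0.5 in size on the log2 scale, start rising (262 genes, 3.02%) or start falling (252 genes, 2.9%). Genes called in the first 12 h only, with a second step under 0.25, halt after a rise (682 genes, 7.86%) or after a fall (1058 genes, 12.2%). A further 18 called genes had a first step that was neither called nor under 0.5. Both steps use the 12 h arrays, so that an error there moves them in opposite directions and adds to the genes that turn back.

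Turning back was partial at the median. Genes that turned down after a first rise had a median first step of 0.88 and a median second step of -0.67, which undid 78.1% of the rise at the median; 295 of 485 stayed above their 0 h level in both lines and 99 were below it in both. Genes that turned up undid 80.2% of their fall at the median, 340 of 585 stayed below the 0 h level in both lines, and 144 were above it in both, among them the leading genes of mitosis. At the next step, 52 of the 72 genes that went on rising and 127 of the 262 that started rising fell again by 36 h, against 7.72% of all genes. That step shares the 24 h arrays, so that an error there adds to these counts.

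**Figure D2:**
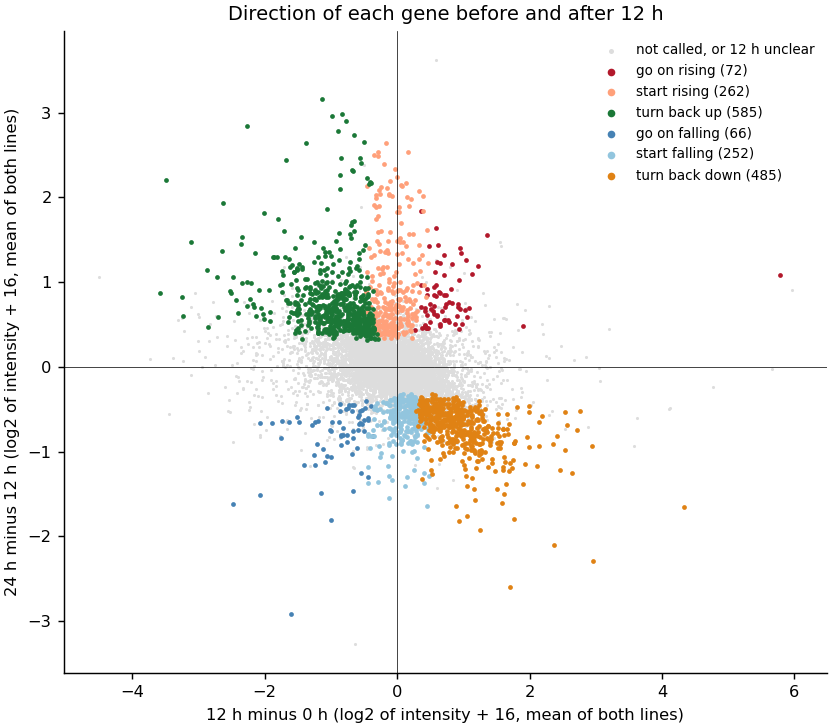
Change from 0 h to 12 h (x axis) against the change from 12 h to 24 h (y axis), both as log2 of intensity + 16 and as the mean of the SETD5 and empty lines; each point is a gene, coloured by its direction in both steps. The 585 genes that turn back up and the 485 that turn back down fill opposite corners, and far fewer, 72 and 66, go on in the direction they had; the 12 h arrays enter both axes with opposite signs.

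Genes of mitosis had the largest median change of the 23 gene lists tested. Of 65 tested, 63 rose and none fell, against 10.7% and 9.34% of all genes, and the median change was 2.01 on the log2 scale (SETD5 2.03, empty 1.96). In the first 12 h only 11 of them had risen and 15 had fallen, against 19.9% and 27.9% of all genes, with a median of -0.07. Every one of the 65 had its highest intensity of the 7 hours at 24 h, in both lines, which held for 12.5% (SETD5) and 12.0% (empty) of all genes. By 36 h, 64 of the 65 had fallen, against 7.72% of all genes, with a median of -2.15. In bulk RNA, more cells in mitosis and more RNA of these genes per cell cannot be told apart.

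Ccnb2 had the largest rise of the list. Ccnb2, a B-type cyclin that drives entry into mitosis, had intensities of 1256 in SETD5 cells and 1301 in empty cells at 24 h, against 117 in SETD5 cells and 140.0 in empty cells at 12 h. It rose 8.98-fold (log2 change 3.17 ± 0.17, adjusted p = 6.06e-06), after a fall of the first 12 h (-1.14, adjusted p = 4.58e-04), and at 24 h lay far above its 0 h intensities of 287 (SETD5) and 315 (empty). Ccna2, the cyclin A of S phase and G2, gave 1147 and 1194 at 24 h, against 268 and 294 at 12 h, SETD5 cells first, as in every such pair of values that follows (2.00 ± 0.18, adjusted p = 9.04e-05). Cdk1, the kinase both cyclins activate, gave 2188 and 2296 at 24 h, against 716 and 728 at 12 h (1.61 ± 0.18, adjusted p = 3.27e-04). The values of the 2 hours did not overlap in these 3 genes, which adds nothing to their calls. Cdc25c, a phosphatase that activates Cdk1, rose by 2.47 on the log2 scale, and Cks1b, a small Cdk-binding subunit, was 1 of the 2 members not called (3332 and 3560.0 at 24 h, against 2574 and 2564 at 12 h, adjusted p = 0.0521).

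Genes of the kinetochore and of the checkpoint that watches it rose as well. Cenpf, a kinetochore protein, had 740.2 and 765 at 24 h, against 72.4 and 90.2 at 12 h and rose 7.93-fold (2.99 ± 0.13, adjusted p = 2.58e-06). Bub1b, a checkpoint kinase-like protein that holds back the APC/C, had 628 and 736 at 24 h, against 54.5 and 107 at 12 h (2.90 ± 0.19, adjusted p = 1.48e-05). Cenpa, the histone variant that marks centromeres, had 1282 and 1247 at 24 h, against 174 and 178 at 12 h (2.74 ± 0.18, adjusted p = 1.44e-05). The 2 lines lay close to each other at 24 h in each of these, and the lowest value at 24 h stood above the highest at 12 h by several fold. Checkpoint genes near the low end of the range included Bub3 (0.50) and Mad2l1 (1.09), which had already risen by 12 h.

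Motor proteins, kinases and the machinery of division rose in the same step. Kif20a, a kinesin of the dividing cell's midzone, had 1072 and 1177 at 24 h, against 154 and 176 at 12 h (2.66 ± 0.14, adjusted p = 5.15e-06), and Aspm, a spindle pole protein, had 922 and 966 at 24 h, against 103 and 111 at 12 h (2.96 ± 0.17, adjusted p = 8.97e-06). Nek2, a centrosome kinase, had 435 and 414 at 24 h, against 37.2 and 78.1 at 12 h (2.64 ± 0.23, adjusted p = 7.53e-05), with the lines apart at 12 h. Mki67, the common proliferation marker, had 1511 and 1654 at 24 h, against 269 and 300.4 at 12 h (2.41 ± 0.17, adjusted p = 2.04e-05). Cdkn3, a phosphatase that acts on cyclin-dependent kinases, had 219 and 235 at 24 h, against 22.2 and 23.6 at 12 h and a change of 2.64; because its 12 h intensities lie under 50, that size depends on the constant added before taking logs, and it was 3.10 with a constant of 4 and 1.74 with 64. Cit, a kinase of cytokinesis, was the other member not called (76.6 and 76.8 at 24 h, against 50.3 and 41.1 at 12 h, adjusted p = 0.0953).

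A smaller set had begun before 12 h. Of the 65 genes, 10 went on rising, 38 started at 12 h and 15 turned up. Ncapg, a condensin subunit that compacts chromosomes, had 449 and 491 at 24 h, against 121 and 119 at 12 h, with 82.2 and 99.2 at 0 h (1.83 ± 0.13, adjusted p = 1.93e-05). Ttk, the kinase that starts the spindle checkpoint, had 381 and 419 at 24 h, against 116 and 118 at 12 h (1.64 ± 0.20, adjusted p = 5.75e-04). Top2a, the topoisomerase that untangles replicated DNA, had 3650.4 and 4032 at 24 h, against 1126 and 1492 at 12 h, with 447 and 549.5 at 0 h, so that its 2 steps, 1.36 and 1.55, were of like size. Cenpi, another kinetochore protein outside the list, had 422 and 440.4 at 24 h, against 138 and 160.4 at 12 h (1.44 ± 0.19, adjusted p = 8.50e-04). All 4 fell at 36 h, by 2.77 for Cenpi and by 1.42 for Top2a on the log2 scale.

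Of 17 genes of the APC/C list tested, 8 rose and none fell, against 10.7% and 9.34% of all genes, with a median change of 0.27. Its mitotic activator Cdc20, counted with the mitosis genes, had 2786 in SETD5 cells and 2485 in empty cells at 24 h, against 543 in SETD5 cells and 557 in empty cells at 12 h (2.23 ± 0.17, adjusted p = 3.00e-05), and Ube2c, the enzyme that hands ubiquitin to the APC/C, had 2693 and 3038 at 24 h, against 456 and 501 at 12 h (2.54 ± 0.20, adjusted p = 3.66e-05). Pttg1, the securin that the APC/C destroys, rose by 2.32. Fzr1, the activator (Cdh1) used late in mitosis and in G1, had 89.6 and 104 at 24 h, against 30.5 and 38.2 at 12 h (1.17 ± 0.11, adjusted p = 1.40e-04; 1.40 and 0.71 with constants of 4 and 64). Fbxo5, which inhibits the APC/C, had 379 and 452 at 24 h, against 255 and 277 at 12 h (0.61 ± 0.19, adjusted p = 0.0452). Among core subunits Anapc15 had the largest rise (0.90), whereas Anapc1, Anapc2, Anapc4, Cdc16 and Cdc23 were not called, with changes between -0.19 and 0.25. The rise of Anapc11 (0.65, adjusted p = 0.0355) was not called in its second probe set (0.52, adjusted p = 0.0944).

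**Figure D3:**
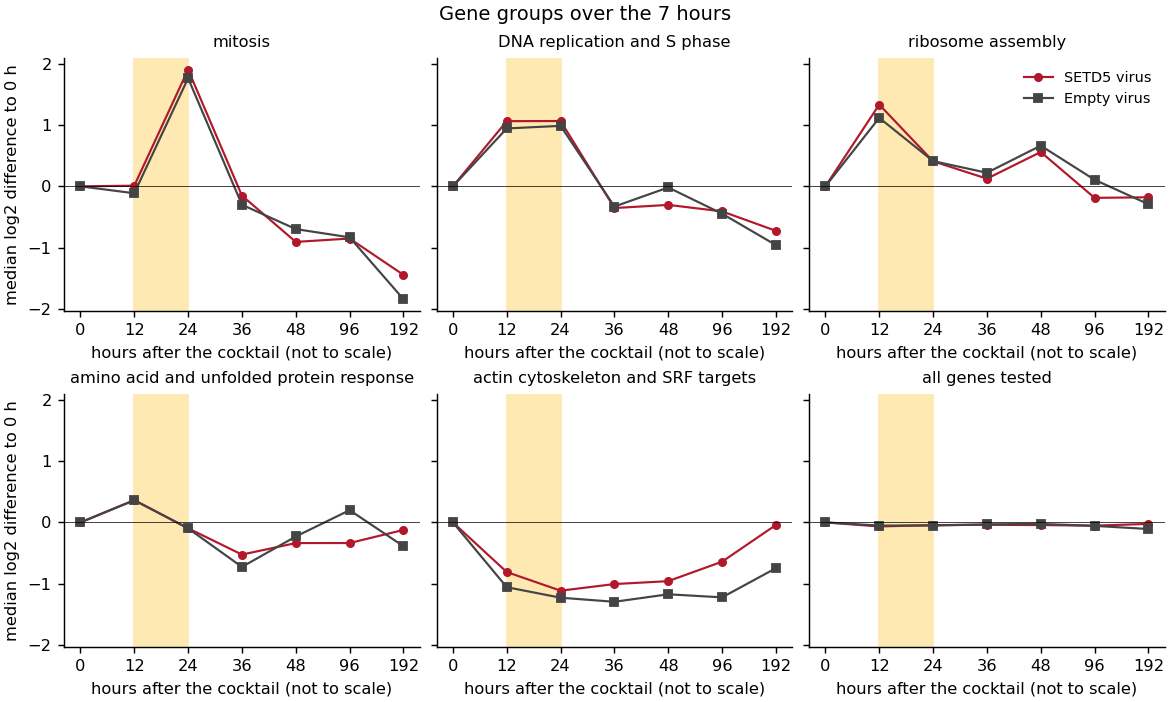
Median log2 difference to 0 h over the members of 5 gene groups and over all 8682 genes (y axis) at each of the 7 hours (x axis, not to scale), for SETD5 cells (circles) and empty cells (squares); the shaded band runs from 12 h to 24 h. Mitosis reaches 1.91 (SETD5) and 1.76 (empty) at 24 h only, DNA replication stays near 1 at 12 h and 24 h, and ribosome assembly peaks at 12 h with 1.33 (SETD5) and 1.12 (empty).

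Promoters of the 2 strongest risers of the mitosis list and of the 2 strongest risers of the DNA replication list are shown, as the members of each list with the largest change in the window; both replication genes start rising after 12 h, unlike most of their list. Sequences are RefSeq's (GRCm38.p6), from 250 bases before to 50 after the annotated start, each on the minus strand of its chromosome and printed 5′ to 3′ along the gene. Ccnb2 lies at chr9:70421505-70421804, Cenpf at chr1:189688037-189688336, Tk1 at chr11:117825965-117826264 and Dbf4 at chr5:8422667-8422966. Capitals mark matches on either strand to the CHR letters TTTGAA, to CCAAT, to the E2F sites TTTCCCGC and TTTGGCGC, and to the cAMP response element TGACGTCA.
Ccnb2: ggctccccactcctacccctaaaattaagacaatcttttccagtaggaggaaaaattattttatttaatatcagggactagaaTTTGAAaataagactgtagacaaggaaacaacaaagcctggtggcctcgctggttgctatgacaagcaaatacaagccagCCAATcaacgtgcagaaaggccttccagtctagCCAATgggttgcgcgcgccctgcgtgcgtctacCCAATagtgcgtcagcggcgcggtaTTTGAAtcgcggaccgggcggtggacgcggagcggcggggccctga
Cenpf: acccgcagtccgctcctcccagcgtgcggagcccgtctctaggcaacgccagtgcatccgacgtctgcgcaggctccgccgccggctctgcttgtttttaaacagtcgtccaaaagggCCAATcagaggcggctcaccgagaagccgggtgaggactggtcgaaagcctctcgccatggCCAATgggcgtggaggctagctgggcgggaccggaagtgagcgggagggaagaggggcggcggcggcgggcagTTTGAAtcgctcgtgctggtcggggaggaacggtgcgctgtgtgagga
Tk1: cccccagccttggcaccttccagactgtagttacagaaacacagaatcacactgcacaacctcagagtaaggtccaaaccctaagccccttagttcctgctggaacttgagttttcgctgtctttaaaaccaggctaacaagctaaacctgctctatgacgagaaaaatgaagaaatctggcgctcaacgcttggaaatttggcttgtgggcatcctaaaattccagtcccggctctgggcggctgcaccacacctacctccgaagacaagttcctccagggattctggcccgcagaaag
Dbf4: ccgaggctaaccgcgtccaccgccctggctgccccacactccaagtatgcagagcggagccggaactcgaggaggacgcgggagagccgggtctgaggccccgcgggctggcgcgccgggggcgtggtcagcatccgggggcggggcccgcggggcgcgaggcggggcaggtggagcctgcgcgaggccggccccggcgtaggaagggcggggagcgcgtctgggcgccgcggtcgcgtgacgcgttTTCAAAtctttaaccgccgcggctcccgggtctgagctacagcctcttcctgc

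Ccnb2 holds CHR letters starting 4 bases from the annotated start and 167 bases before it, with CCAAT at -87, -54 and -21. Cenpf holds CHR letters at 2, with CCAAT at -132 and -71. Dbf4 has CHR letters on the other strand at -3, and Tk1 has no match in its window. Of 54 mitosis genes with a promoter in the table, 39 (72.2%) held CHR letters, 40 (74.1%) CCAAT and 34 (63.0%) both, against 11.5%, 39.4% and 4.74% of the 7157 promoters of genes tested and 18.1%, 37.9% and 7.12% of all 27025 promoters. Of the 47 replication genes with a promoter, 13 (27.7%) held the E2F letters, against 3.7% of mitosis genes, 3.42% of genes tested and 1.63% of all promoters, and 8 (17.0%) held CHR letters. In 27 ribosome assembly genes the shares were 11.1% for E2F, 7.41% for CHR and 29.6% for CCAAT. Such matches are a description of the letters in these windows.

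Genes of DNA replication had risen before 12 h and as a group kept their level through the window. Of 59 tested, 48 had risen in the first 12 h, against 19.9% of all genes, with a median of 1.02, and none had fallen. Between 12 h and 24 h 9 rose and 7 fell, shares near the 10.7% and 9.34% of all genes. The median was 0.03, which was -0.01 when every probe set was counted. At 24 h, 57 of the 59 stood above their 0 h level in both lines, against 3400 of all 8682 genes. At 36 h, 54 had fallen, against 7.72% of all genes, with a median of -1.30. The highest hour was 24 h for 33 genes (SETD5) and 29 (empty), and 12 h for 25 (SETD5) and 29 (empty).

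The 7 that fell are described first. Ccne2, a cyclin E that starts replication, had 238 in SETD5 cells and 307 in empty cells at 24 h, against 609 in SETD5 cells and 732 in empty cells at 12 h (-1.25 ± 0.17, adjusted p = 9.48e-04), and stayed above its 0 h intensities of 78.7 (SETD5) and 112 (empty). Ccne1 had 73.2 and 74.7 at 24 h, against 164 and 154 at 12 h (-0.96 ± 0.21, adjusted p = 0.0113). Cdc6, which loads the MCM helicase on origins, had 109 and 101 at 24 h, against 288 and 246 at 12 h (-1.22 ± 0.21, adjusted p = 0.00323). In each, both values at 24 h lay under both at 12 h, which adds nothing to the calls. Cdc25a, the phosphatase that frees Cdk2, fell by 0.90, Exo1, an exonuclease of DNA repair, by 0.53, Orc1, of the origin recognition complex, by 0.40 and E2f1 by 0.81 on the log2 scale.

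Of the 9 that rose, Tk1 had the largest change. Tk1, which makes thymidine monophosphate, had 395 and 422 at 24 h, against 129 and 152 at 12 h (1.44 ± 0.15, adjusted p = 2.29e-04), and it had hardly moved before (0.32, adjusted p = 0.0995). Dbf4, the partner that activates the kinase Cdc7, had 691 and 767 at 24 h, against 325 and 330.1 at 12 h (1.11 ± 0.19, adjusted p = 0.00336), whereas Cdc7 itself was not called (0.05, adjusted p = 0.840). Rpa3, a subunit of the protein that coats single-stranded DNA, had 954 and 1165 at 24 h, against 459 and 516 at 12 h (1.09 ± 0.12, adjusted p = 4.20e-04). Primase and polymerases went on rising, with Prim1 at 0.67, Pola1 at 0.66 and Pole at 0.45, as did the clamp loader genes Rfc4 (0.71) and Rfc5 (0.59). Lig1, the DNA ligase that joins Okazaki fragments, rose by 0.83.

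Genes of the helicase and the clamp were not called. Mcm5, a helicase subunit, had 1367 and 1227 at 24 h, against 1274 and 1410.5 at 12 h, with 451 and 455 at 0 h; its change was -0.05 ± 0.20, adjusted p = 0.893, after 1.53 in the first 12 h, and the values of the 2 hours overlapped. Pcna, the sliding clamp, had 3996 and 4117 at 24 h, against 4299.7 and 4485 at 12 h (-0.11 ± 0.14, adjusted p = 0.604). Mcm4, Mcm7 and Mcm10 likewise halted after a rise, with changes between -0.15 and -0.01, and Mcm2, Mcm3 and Mcm6 were not called either, at -0.59, -0.46 and -0.33. In all, 23 of the 59 replication genes halted after a rise.

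**Figure D4:**
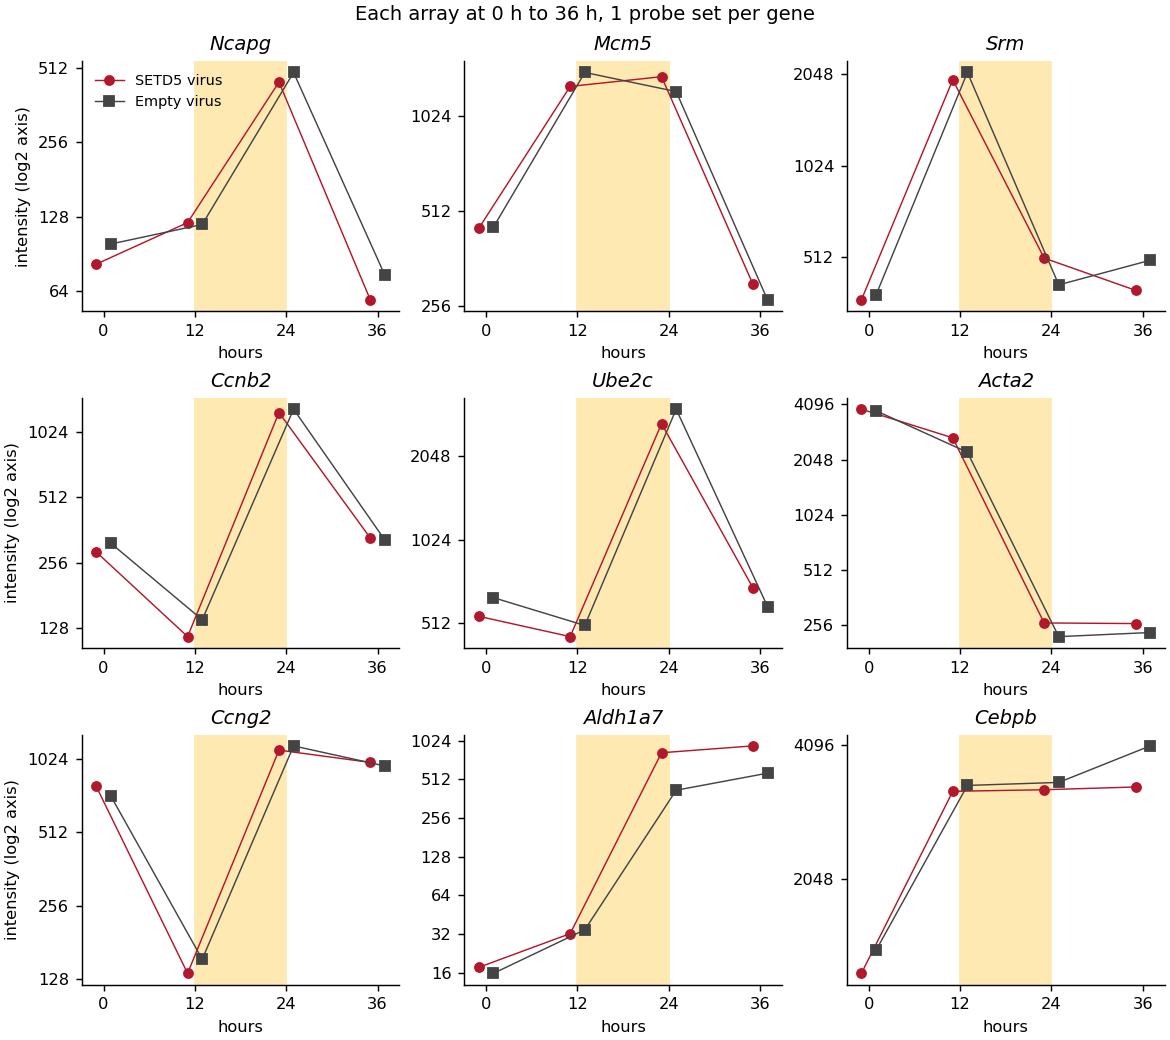
Intensity (log2 axis) on each array at 0, 12, 24 and 36 h (x axis) for 9 genes, with SETD5 cells as circles and empty cells as squares; the shaded band runs from 12 h to 24 h. Ncapg goes on rising, Ccnb2 and Ccng2 turn up, Ube2c starts, Srm turns down, Mcm5 and Cebpb are not called in the window, and Acta2 and Aldh1a7 change by 9.61-fold and 12.3-fold on the fitted scale.

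Of 23 genes that control G1, 7 rose and 5 fell, against 10.7% and 9.34% of all genes, with a median of -0.07. The 5 falls were Cdk6 (-1.32), Ccnd1 (-1.26), Ccnd2 (-1.05), Myc (-0.89) and E2f3 (-0.55). Ccnd1, a D-type cyclin, had 722 and 852 at 24 h, against 1712 and 2106 at 12 h (-1.26 ± 0.23, adjusted p = 0.00505), and Myc, a growth factor-induced transcription factor, had 264 and 235 at 24 h, against 498 and 456 at 12 h (-0.89 ± 0.21, adjusted p = 0.0144), still above its 109 and 151 at 0 h. The 7 rises were Ccng2 (2.84), the CDK inhibitors Cdkn2c (1.31), Cdkn2b (1.30) and Cdkn1b (1.17), and the pocket proteins Rb1 (0.90), Rbl1 (0.83) and Rbl2 (0.61).

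Of these 7, Ccng2, Cdkn1b, Cdkn2b, Cdkn2c and Rbl2 had fallen in the first 12 h. Ccng2, a cyclin known from resting and FoxO-driven cells, had 1114 in SETD5 cells and 1159 in empty cells at 24 h, against 135 in SETD5 cells and 154 in empty cells at 12 h, and had given 791 and 722 at 0 h; its fall of 2.27 and its rise of 2.84 ± 0.25, adjusted p = 9.04e-05 were of like size, and at 36 h it kept 992 and 958. Cdkn1b, which encodes p27, had 591 and 699 at 24 h, against 298 and 258 at 12 h, with 546 and 642 at 0 h (1.17 ± 0.21, adjusted p = 0.00400). A second Cdkn1b probe set was low and uneven, with 20.2 and 187 at 24 h, against 30.8 and 75.6 at 12 h, and was not called (0.39, adjusted p = 0.533). Cdkn2b, which encodes p15, had 796 and 704 at 24 h, against 287 and 303 at 12 h, with 1009.5 and 959 at 0 h (1.30 ± 0.14, adjusted p = 3.46e-04). Cdkn1a, which encodes p21, was not called (582 and 535 at 24 h, against 744 and 679.7 at 12 h, adjusted p = 0.114). Ccng2, Cdkn1b, Cdkn2b and Rbl2 were not called between 24 h and 36 h, whereas Rbl1 fell by 1.80.

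Of the histone genes listed, 6 of 43 were on the array and 3 were tested. H1f2, a linker histone, had 1951 and 1791 at 24 h, against 564 and 581 at 12 h (1.68 ± 0.14, adjusted p = 5.80e-05), and H2bc21 had 108 and 90.1 at 24 h, against 33.4 and 24.8 at 12 h (1.35, and 1.64 and 0.81 with constants of 4 and 64). H2bc18 was not called (108 and 73.3 at 24 h, against 118 and 54.5 at 12 h). Most histone messages of S phase are known to lack a poly(A) tail.

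Ribosome assembly turned back. All but 1 of the 32 genes tested had risen in the first 12 h, against 19.9% of all genes, with a median of 1.22. Between 12 h and 24 h, 26 fell and none rose, against 9.34% and 10.7% of all genes, with a median of -0.88. The falls ran from -0.54 to -1.38 on the log2 scale. At 24 h 26 of the 32 still stood above their 0 h level in both lines, against 3400 of all 8682 genes. The highest hour was 12 h for 31 genes (SETD5) and 30 genes (empty).

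Nolc1, a nucleolar chaperone of small ribonucleoproteins, had 386 in SETD5 cells and 522 in empty cells at 24 h, against 1074 in SETD5 cells and 1338 in empty cells at 12 h (-1.38 ± 0.18, adjusted p = 7.52e-04). Heatr1, needed for rRNA transcription and processing, had 107 and 94.7 at 24 h, against 225 and 239 at 12 h (-1.09 ± 0.14, adjusted p = 6.89e-04), and Rrs1, of large subunit assembly, had 568 and 588 at 24 h, against 1493 and 1039 at 12 h (-1.09 ± 0.27, adjusted p = 0.0205). Both values at 24 h lay below both at 12 h in all 3, which adds nothing to their calls. The subunits of RNA polymerase I divided: Polr1a (-0.68), Polr1b (-0.99) and Polr1e (-1.07) fell, and Polr1c, which RNA polymerase III shares, did not (680.1 and 719 at 24 h, against 544 and 547 at 12 h, adjusted p = 0.105). The abundant nucleolar proteins Npm1 (-0.07) and Ncl (-0.39) were not called, and neither were Pes1, Gar1 and Nhp2. Srm, the spermidine synthase and a well-known Myc target outside the list, had 507 and 414 at 24 h, against 1962 and 2075 at 12 h (-2.10 ± 0.19, adjusted p = 1.23e-04), close to its 369 and 383 at 0 h.

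Genes of amino acid supply and of the unfolded protein response fell with them. Of 24 tested, 11 fell and none rose, against 9.34% and 10.7% of all genes, with a median of -0.51. All 24 fitted changes were below 0, 23 of them in both lines, against 3382 of all 8682 genes in both lines. Psph and Phgdh, which make serine, had 197 and 177 at 24 h, against 382 and 337 at 12 h and 656 and 588 at 24 h, against 909 and 1194 at 12 h; their log2 changes were -0.89 ± 0.14, adjusted p = 0.00175 and -0.73 ± 0.18, adjusted p = 0.0192. Hyou1, a chaperone of the endoplasmic reticulum, had 139 and 132 at 24 h, against 271 and 258 at 12 h (-0.88 ± 0.14, adjusted p = 0.00248), and Sdf2l1 fell by 0.90. Sesn2, a stress sensor of the ATF4 pathway, had 12.4 and 71.3 at 24 h, against 55 and 128 at 12 h; the SETD5 value was the lower one at each hour, and its change of -1.02 was -1.33 and -0.57 with constants of 4 and 64. The transcription factor Atf4 was not called (-0.20), and Fkbp11, a prolyl isomerase of the endoplasmic reticulum outside the list, had 98.7 and 65.8 at 24 h, against 260.3 and 314 at 12 h (-1.64 ± 0.29, adjusted p = 0.00349).

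Genes of the contractile cytoskeleton held the largest fall of all. Acta2, smooth muscle actin, had 263 in SETD5 cells and 222 in empty cells at 24 h, against 2691 in SETD5 cells and 2246 in empty cells at 12 h. It fell 9.61-fold (-3.26 ± 0.25, adjusted p = 3.20e-05), after a first step of -0.63 that was not called (adjusted p = 0.0588), and stayed at 261 and 233 at 36 h. Of 19 genes in the list, 13 had already fallen in the first 12 h, against 27.9% of all genes. In the window 4 fell and none rose, against 9.34% and 10.7% of all genes, with a median of -0.31. The other 3 were Tagln (10.6 and 5.1 at 24 h, against 75 and 59 at 12 h), Myl9 (18.9 and 26.6 at 24 h, against 119 and 88.1 at 12 h) and Actg2 (10.8 and 5.1 at 24 h, against 63.2 and 40.5 at 12 h). All 3 are smooth muscle genes that had fallen before; their changes were -1.80, -1.62 and -1.49, and with a constant of 4 or 64 they were -2.61 or -0.86, -2.01 or -0.94, and -2.24 or -0.68. Srf itself, Vcl and Zyx had fallen by 12 h and then halted.

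Of 37 matrix genes, 5 rose and 5 fell, shares near the 10.7% and 9.34% of all genes. Lum, the collagen-binding lumican, had 175 and 526 at 24 h, against 38.1 and 48.8 at 12 h and 419.9 and 979.9 at 36 h (2.44 ± 0.25, adjusted p = 2.34e-04; 2.71 and 1.81 with constants of 4 and 64). It rose in both lines, by 1.82 in SETD5 cells and 3.06 in empty cells, a difference of -1.24 ± 0.32 with an adjusted p of 0.9998. Col1a1, a chain of type I collagen, had 297 and 243 at 24 h, against 628 and 632 at 12 h (-1.18 ± 0.18, adjusted p = 0.00173), while Col1a2, the other chain, was not called (5499 and 5384 at 24 h, against 5527 and 5902 at 12 h). Ogn, osteoglycin, a small proteoglycan outside the list, had 85.4 and 64.2 at 24 h, against 664 and 661 at 12 h, with 2164 and 1950.5 at 0 h (-2.91 ± 0.34, adjusted p = 4.64e-04). Kera, keratocan, of the same family and also outside the list, had 149 and 268 at 24 h, against 17.3 and 25.6 at 12 h (2.54; 3.02 and 1.64 with constants of 4 and 64). Thus Lum and Kera were higher at 24 h, and Ogn was lower.

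Of 13 genes listed as early factors of fat cell formation, 3 rose and 2 fell, with a median change of 0.22, against 10.7% and 9.34% of all genes. Cebpb, which encodes C/EBPβ, had 3256 in SETD5 cells and 3381 in empty cells at 24 h, against 3229 in SETD5 cells and 3329 in empty cells at 12 h (0.02 ± 0.14, adjusted p = 0.954), after 1260.4 and 1419.6 at 0 h, and the change in the window was within its error. Cebpd was not called (772 and 541 at 24 h, against 654 and 460.3 at 12 h, adjusted p = 0.317) and lay higher in SETD5 cells at both hours. Klf5, another early factor, had likewise halted after a rise of 3.07. Klf4 fell (281 and 240.5 at 24 h, against 709 and 584 at 12 h, -1.26 ± 0.18, adjusted p = 0.00124). Gtf2f2, the other fall, by 0.64, is a general transcription factor subunit rather than a regulator of fat cell formation. Nr3c1, the glucocorticoid receptor, rose by 0.49. Zfp467 rose by 0.76 (1.15 and 0.33 with constants of 4 and 64) and Ebf1 by 0.64, with Ebf1 not called in its second probe set (0.55, adjusted p = 0.0783).

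None of the 8 late factors passed the test (limma), with 2 at an unadjusted p under 0.05. Their median change was 0.45, and 5 of the 8 were higher at 24 h in both lines, as were 3587 of all 8682 genes. Pparg had 135 in SETD5 cells and 278 in empty cells at 24 h, against 84.8 in SETD5 cells and 113 in empty cells at 12 h (0.89 ± 0.46, adjusted p = 0.207). Every 24 h value exceeded every 12 h value, which adds nothing to the test. The call depended on the arrays that set the spread, with an adjusted p of 0.00943 (limma) from the 10 arrays up to 48 h. That setting raised the calls over all genes, from 929 rises and 811 falls to 1539 and 1385. Cebpa had 28.8 and 36.4 at 24 h, against 19.3 and 1.1 at 12 h (0.98, adjusted p = 0.220). Of 23 fat cell markers, 2 rose and none fell, a share near the 10.7% of all genes. Angptl4, a PPAR target that inhibits lipoprotein lipase, had 315 and 632 at 24 h, against 124 and 208 at 12 h and 1308 and 1653 at 36 h (1.39 ± 0.17, adjusted p = 6.25e-04), and Plin2, a coat protein of lipid droplets, had 304 and 377 at 24 h, against 150.4 and 199 at 12 h (0.91 ± 0.19, adjusted p = 0.00971). Plin2 had first fallen by 2.08, from 799.5 and 767.4 at 0 h, so that it turned back up and was still under its 0 h level at 24 h. Fabp4, the fatty acid-binding protein of fat cells, had 11.4 and 36.3 at 24 h, against 16.2 and 19.6 at 12 h, and rose only by 36 h (220.0 and 809 at 36 h). No gene of cholesterol synthesis was called by limma among 21, with 2 at an unadjusted p under 0.05, although a second probe set of Hsd17b7 was called lower (119.6 and 195 at 24 h, against 313 and 326 at 12 h, -0.99, adjusted p = 0.0248) where its main one was not (-0.63, adjusted p = 0.265). Of 14 fatty acid synthesis genes Elovl6 (-0.74) and Acsl4 (-0.88) fell.

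Most targets of the cocktail's own agents had risen before 12 h. Of 17 glucocorticoid targets, 11 had risen by 12 h, against 19.9% of all genes. In the window 3 rose, Pdk4 (0.91), Ddit4 (0.84) and Cited2 (0.45), and none fell, against 10.7% and 9.34% of all genes. The list's median over 0 h was 1.17 (SETD5) and 1.09 (empty) at 12 h, 1.47 and 1.57 at 24 h, and 2.07 and 2.21 at 36 h. Gene by gene, the median change in the window was only 0.10 (SETD5 0.07, empty -0.10), with 9 fitted changes above 0 and 8 below. From 24 h to 36 h, 4 of the 17 rose, against 6.9% of all genes. Zbtb16, a zinc finger factor, was not called in its main probe set (75.9 and 83.5 at 24 h, against 43.9 and 29.7 at 12 h, 0.87 ± 0.28, adjusted p = 0.0556) but was called in its second (0.89, adjusted p = 0.00858). Fkbp5 had 1785 and 2026 at 24 h, against 1699 and 2176 at 12 h, after 199 and 237 at 0 h, and Tsc22d3 had 2048 and 1428 at 24 h, against 1653 and 1540.1 at 12 h; neither was called. Of 10 cAMP targets and phosphodiesterases, 8 had risen by 12 h, against 19.9% of all genes. All 10 stood above 0 h in both lines at 24 h, as did 3400 of all 8682 genes. Only Vegfa was called in the window, with 222 and 213 at 24 h, against 347 and 375 at 12 h (-0.69 ± 0.21, adjusted p = 0.0416), and not in its second probe set (-0.32, adjusted p = 0.298).

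Of 19 immediate early factors, 11 had fallen and 5 had risen in the first 12 h, against 27.9% and 19.9% of all genes. In the window none rose and 4 fell, against 10.7% and 9.34% of all genes. These were Egr3 (-1.16, and -1.39 or -0.71 with constants of 4 or 64), Fosl1 (-0.74), Fos (-0.66) and Jund (-0.42). Fosl1 had risen first, from 32.8 and 50.7 at 0 h to 339 and 379 at 12 h, and kept 149 and 289 at 24 h. The list's median over 0 h was -0.96 (SETD5) and -0.82 (empty) at 12 h, and -0.73 and -0.65 at 24 h. Gene by gene, however, the median change in the window was -0.17 (SETD5 -0.23, empty -0.13). In both lines, 11 of the 19 were lower at 24 h and 6 were higher. Fos had 83.6 and 64.4 at 24 h, against 129 and 122 at 12 h, with 630.5 and 526 at 0 h, and Egr1, which had fallen by 3.44 before, had 234 and 163 at 24 h, against 306 and 285 at 12 h (adjusted p = 0.0686). Of 13 clock genes, Cry1, a repressor, had 34.9 and 16.9 at 24 h, against 223 and 241 at 12 h, with 63 and 57.3 at 0 h (-2.60 ± 0.24, adjusted p = 1.24e-04; -3.05 and -1.72 with constants of 4 and 64). Per2, its partner, had 39.8 and 34.6 at 24 h, against 102 and 92.8 at 12 h (-1.09, and -1.30 or -0.67 with those constants) and was back at 98.9 and 99.1 at 36 h, and Tef fell by 0.49. Nr1d2, a nuclear receptor that represses clock genes, had 188 and 220.3 at 24 h, against 86.2 and 103 at 12 h (0.99 ± 0.13, adjusted p = 7.10e-04), well under its 529 and 560.3 at 0 h. Thus Cry1 and Per2 were low and Nr1d2 was high at 24 h relative to 12 h, in both lines.

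**Figure D5:**
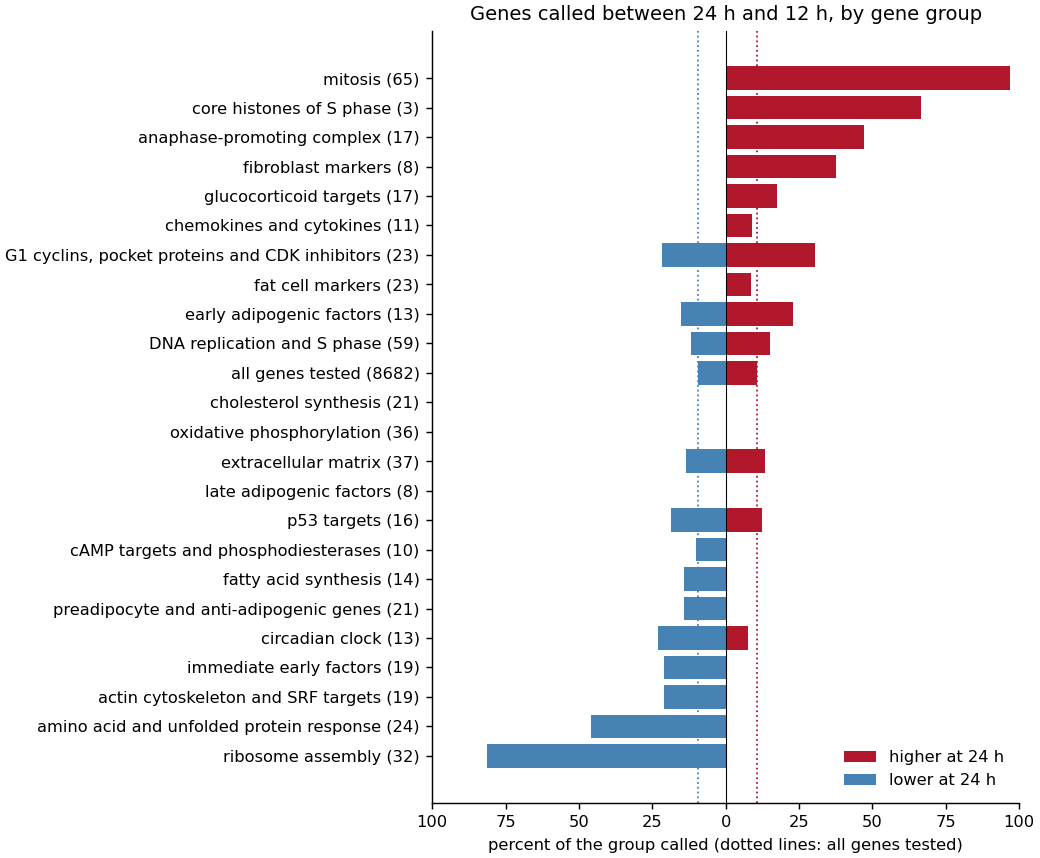
Percent of each gene group called higher (bars to the right) or lower (bars to the left) at 24 h than at 12 h, with the number of genes tested in brackets; dotted lines mark the 10.7% and 9.34% of all 8682 genes. Mitosis stands at the top with 63 of 65 higher and ribosome assembly at the bottom with 26 of 32 lower.

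Outside the lists, Aldh1a7, an aldehyde dehydrogenase, had the largest rise of all, with 823 in SETD5 cells and 420.5 in empty cells at 24 h, against 32.2 in SETD5 cells and 34.5 in empty cells at 12 h (3.62 ± 0.55, adjusted p = 0.00182). The SETD5 value at 24 h was the higher one, and the arrays gave 930.5 and 571 at 36 h; with constants of 4 and 64 the change was 3.99 and 2.75. Lockd, a noncoding RNA beside Cdkn1b, had 173 and 206 at 24 h, against 12.1 and 15.7 at 12 h (2.78; 3.44 and 1.70 with those constants). Among falls, Epas1, the hypoxia factor HIF-2α, had 154 and 145 at 24 h, against 805 and 777 at 12 h, with 114 and 67.3 at 0 h (-2.29 ± 0.29, adjusted p = 8.03e-04), and Gsto1, a glutathione transferase, had 908 and 700.1 at 24 h, against 2899 and 3241 at 12 h (-1.92 ± 0.27, adjusted p = 0.00107). Tnfrsf12a, the receptor of TWEAK, had 139.8 and 123 at 24 h, against 497 and 510.3 at 12 h (-1.82 ± 0.22, adjusted p = 6.23e-04). Ramp3, a partner of calcitonin-family receptors, had 111 and 126 at 24 h, against 414 and 397 at 12 h after only 5.6 and 4.2 at 0 h (-1.65 ± 0.21, adjusted p = 7.10e-04). Slc7a1, an amino acid transporter that starts falling at 12 h, had 157 and 160.4 at 24 h, against 371 and 505 at 12 h (-1.36 ± 0.22, adjusted p = 0.00235), and Flnc, filamin C, had 53.2 and 62.3 at 24 h, against 192 and 206 at 12 h (-1.55 ± 0.20, adjusted p = 8.32e-04).

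Of 8 fibroblast markers, 3 rose and none fell, against 10.7% and 9.34% of all genes, and 2 of the 8 were lower at 24 h in both lines. Their summed intensity was 15961 (SETD5) and 17020.0 (empty) at 24 h, against 12963 (SETD5) and 13920.3 (empty) at 12 h. Pdgfra, a receptor of fat cell precursors, had 1627 and 1552 at 24 h, against 923 and 835 at 12 h (0.84 ± 0.12, adjusted p = 0.00114). Prrx1 and Pdgfrb rose by 0.88 and 0.47, and neither was called in its second probe set (adjusted p = 0.279 and 0.677). All 3 had fallen in the first 12 h and turned back up. Pdgfrb had 325.5 and 321.5 at 24 h, against 254 and 205 at 12 h, far under its 1656 and 1836 at 0 h. Thy1, a surface protein of fibroblasts, had 590.1 and 676 at 24 h, against 1030.3 and 1023 at 12 h and was not called (-0.69 ± 0.23, adjusted p = 0.0586). No oxidative phosphorylation gene was called by limma among 36, with 2 at an unadjusted p under 0.05. In both lines 26 were higher at 24 h (median 0.12), as were 3587 of all 8682 genes.

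A few other lists had few calls. Of 21 preadipocyte genes, which oppose fat cell formation, 3 fell and none rose: Id1, an inhibitor of basic helix-loop-helix factors, had 843 and 936 at 24 h, against 1429 and 1555 at 12 h (-0.74 ± 0.22, adjusted p = 0.0400), Id4 fell by 0.75 and Sfrp2 by 0.65. Id1 and Id4 turned back down after a first rise, from 677 and 683 (Id1) and 355 and 213 (Id4) at 0 h, whereas Sfrp2 went on falling. Dlk1, or Pref-1, the classical preadipocyte marker, was not called (2053 and 1860.3 at 24 h, against 2166 and 2167 at 12 h). Of 16 p53 targets, Sesn1 (0.65) and Fas (0.54) rose and Aen (-0.98), Zmat3 (-0.89) and Phlda3 (-0.63) fell; the second Sesn1 probe set was not called (0.45, adjusted p = 0.324). Of 11 chemokine and cytokine genes, 1 rose, Tnfaip3, an inhibitor of NF-κB signalling, with 41 and 41 at 24 h, against 15.9 and 13.5 at 12 h (0.89; 1.27 and 0.42 with constants of 4 and 64). Over all genes, 10.7% rose and 9.34% fell.

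The leading genes of the remaining courses were of mixed roles. Cryab, a small heat shock protein, went on falling, with 84.3 and 68.1 at 24 h, against 296 and 206 at 12 h after 1154 and 1035 at 0 h (-1.52 ± 0.33, adjusted p = 0.0110), as did Anxa3, an annexin, with 182 and 133 at 24 h, against 486 and 432 at 12 h (-1.46 ± 0.23, adjusted p = 0.00214). Hivep3, a zinc finger protein, started falling (90.6 and 94.1 at 24 h, against 258 and 286 at 12 h, -1.41 ± 0.19, adjusted p = 8.97e-04). Both values of each gene at 24 h were under both at 12 h, which adds nothing to the calls. Tmem119 turned down, with 292 and 173 at 24 h, against 1055 and 637 at 12 h after 238 and 220.3 at 0 h (-1.79 ± 0.16, adjusted p = 8.42e-05), and gave 613 and 399 at 36 h. Cyp26b1, which breaks down retinoic acid, had 32 and 28.5 at 24 h, against 134 and 147 at 12 h (-1.76; -2.08 and -1.12 with constants of 4 and 64), and Asic1, an ion channel, had 29.8 and 17.9 at 24 h, against 108 and 106 at 12 h (-1.65; -2.03 and -0.97). Cdca3, a trigger of mitotic entry, started rising (1269 and 1468 at 24 h, against 202 and 256 at 12 h, 2.50 ± 0.20, adjusted p = 4.07e-05).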

How the data were processed

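RNA of 3T3-L1 cells carrying a SETD5 or an empty retrovirus was hybridised to Affymetrix mouse expression arrays at 7 hours, with 1 array per virus and hour. The deposited values are linear intensities (average differences), which the authors made with GeneChip Analysis Suite and scaled to a trimmed mean of 100 on each array; such scaling hides any change in total RNA per cell. Fluorescence intensities carry no read depth, so that the number of arrays limits the precision. GEO's platform annotation gave 1 symbol to 34944 of 45100 probe sets, several to 932 and none to 9160; 64 control probe sets were left out. Each gene was read from its probe set with the highest mean over the 14 arrays, if 3 or more arrays reached 50, and log2(intensity + 16) was analysed in R 4.3.3 with limma 3.58.1. Fold changes are on that scale, which understates changes of dim genes. The fit used all 14 arrays with hour and virus as terms (6 residual degrees of freedom), so that virus acts as the block; a second fit let the 24 h and 12 h arrays differ by virus (4 residual degrees of freedom). An adjusted p under 0.05 was called. Errors are standard errors of the fit.

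The step from 0 h to 12 h shares the 12 h arrays with the one from 12 h to 24 h, and the step from 24 h to 36 h shares the 24 h arrays. Genes named were the 12 largest called rises and falls with a mean intensity of 100 or more at the higher hour and 1 sign in both lines, the 4 largest of each course, up to 5 genes of each list by size of change, and fixed cell cycle and fat cell regulators; others were added after their values were seen. The hours compared, the lists and the tests were chosen with earlier results of these data known. Scaling, offset, filter, choice of probe sets, virus block, variance settings and left-out arrays were varied. The code was tested on simulated data.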

Additional observations from a re-analysis of the deposited data

How the results depend on the processing

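No named gene turned its direction under the alternatives run, whereas 2 other genes called as rises turned when every probe set was counted. Counts of rises and falls from 12 h to 24 h were 877 and 763 with quantile normalization, 877 and 924 with a common median, 943 and 769 with an offset of 4, 887 and 831 with 64, 805 and 596 without the intensity filter, and 697 and 561 without the virus block. A common median lowered the share of rises among calls to 48.7%, against 53.4%. The 10 arrays up to 48 h gave 1539 and 1385, and the 4 arrays at 12 h and 24 h alone 1910 and 1775, in both cases with all 929 and 811 among them. Leaving out 1 array gave 353 to 474 rises and 251 to 324 falls. The virus difference gave 0 calls in each setting run.

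Alternatives for the neighbouring steps were chosen after seeing the data. With the 10 arrays, 1320 genes rose and 1018 fell from 24 h to 36 h, and the courses held 154 (go on rising), 192 (go on falling), 966 (turn back up), 811 (turn back down), 418 (start rising) and 380 (start falling). Without the filter 392 genes rose to 36 h and 40 went on falling; without the virus block 368 rose to 36 h, 34 went on falling and 158 started falling; with every probe set 2768 rose to 12 h, 1046 halted after a rise and 1600 after a fall. Leaving out 1 array gave 1106 to 1616 rises and 1557 to 2301 falls to 12 h, 157 to 484 rises and 386 to 592 falls to 36 h, 14 to 32 (go on rising), 23 to 29 (go on falling), 182 to 274 (turn back up), 160 to 227 (turn back down), 124 to 156 (start rising), 56 to 74 (start falling), 348 to 648 (halt after a rise) and 582 to 981 (halt after a fall). The cause of these shifts was not tested, beyond the fewer or other arrays in each fit. The 4 arrays alone cannot give courses, since they hold no other hour. Of 153 named genes, 16 lost their call without the filter and 16 without the block, and 27 to 31 with 1 array left out. The median of the p53 targets was -0.13 with every probe set, against 0.05, and that of the fat cell markers was -0.38 without the SETD5 array at 24 h and -0.39 without the empty array at 12 h, against 0.07. Medians of smaller size also changed sign with 1 array left out, to 0.18 at most for cholesterol synthesis, 0.09 for fatty acid synthesis, 0.04 for the G1 genes, 0.03 for the preadipocyte genes and -0.04 for the p53 targets.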

Other observations

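Among the 72 genes that went on rising, several encode secreted proteins of the acute phase or of inflammation; they were picked after their values were seen and stand here as values only. Saa3, serum amyloid A3, gave 13.8 and 10.4 at 0 h, 42.6 and 41.3 at 12 h, 91 and 164 at 24 h, and 301 and 530.3 at 36 h, SETD5 cells first. Cxcl13, a chemokine of B cells, gave 4.6 and 8.4 at 0 h, 25.3 and 29.8 at 12 h, 71.1 and 137 at 24 h, and 489.8 and 587 at 36 h. Lbp, the lipopolysaccharide-binding protein, gave 12 and 1.4 at 0 h, 48.6 and 25.3 at 12 h, 149.8 and 67.4 at 24 h, and 346 and 112 at 36 h. Their changes between 12 h and 24 h were 1.26 ± 0.26, adjusted p = 0.00816 for Saa3, 1.41 ± 0.33, adjusted p = 0.0149 for Cxcl13 and 1.19 ± 0.27, adjusted p = 0.0127 for Lbp with limma, and all 3 lay under 50 on both arrays at 12 h, so that the sizes depend on the constant added. Pip, prolactin-induced protein, was listed at 0.2 and 0.2 at 0 h and gave 1709 and 2076 at 24 h, against 908 and 847 at 12 h (1.09 ± 0.17, adjusted p = 0.00188). Retnla, a resistin-like secreted protein, gave 55.9 and 84.3 at 24 h, against 25.3 and 21.9 at 12 h (1.10, adjusted p = 0.0455).

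After Nedd4, the genes with the lowest p for a difference between the viruses were Rint1, Malat1, Ino80d, Zbed6 and Lum. Malat1, a nuclear noncoding RNA, gave 2324 and 5552 at 24 h, against 4578 and 5319.6 at 12 h, and Zbed6, a zinc finger protein, gave 81.7 and 191 at 24 h, against 209 and 194 at 12 h. In both of these the SETD5 array at 24 h was the lowest of the 4, as it was for Nedd4 and Ino80d but not for Rint1 and Lum. Zbed6 was also lower in SETD5 cells at 0 h (147 and 283) and at 36 h (134 and 205). So was Malat1, with 4229.5 and 5051 at 0 h, and 3953 and 5446.5 at 36 h. None passed the adjusted test.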
